A study of Mus musculus with 4 samples.

Results

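The SOX family genes of a mouse colon tumour cell line were followed across 3 mutant derivatives and their control. They are 10 genes, Sox2, Sox4, Sox5, Sox6, Sox7, Sox9, Sox11, Sox12, Sox17 and Sox18, chosen by name from the 41457 rows of the count table. Sox9 was chosen because its counts differ between the lines, so its values are given as a description and without a test. The tumour cells were cultured in RPMI medium. M8, M32 and M83 are labelled as ENU mutants, after N-ethyl-N-nitrosourea, a chemical mutagen that acts on germ and somatic cells mainly through single-base changes, and the control carries no such label. Each of these 4 has 1 column of raw gene counts from poly(A) RNA, called a library here. The sources used here do not say whether the lines are clones, whether they share a parent culture with the control, or whether a column sums the triplicates named in the design.

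SOX proteins are transcription factors that bind DNA through an HMG box, a domain that sits in the minor groove and bends the helix, and they usually act on enhancers together with a partner factor. The family is divided into groups by the sequence of that box. Sox2 (group SoxB1) keeps pluripotent cells and neural progenitors undifferentiated. Sox4, Sox11 and Sox12 (SoxC) act in neural and mesenchymal progenitors, and Sox9 (SoxE) directs cartilage formation and in the gut marks the crypt base and Paneth cells. Sox5, Sox6 and Sox13 (SoxD) have no transactivation domain of their own, and Sox5 and Sox6 assist Sox9 in cartilage. Sox7, Sox17 and Sox18 (SoxF) act in blood and lymph vessel endothelium, and Sox17 also in endoderm.

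The libraries held 28879954 (M8), 27312207 (M32), 28011773 (M83) and 25818148 (control) counts. Markers fixed for colon epithelium were mostly missing from all of them. Epcam and Cdx2 had 0 counts in every library, and 5 of the 14 listed epithelial genes reached the filter on low counts. The summed level of that list was 181, 74.5 and 161 CPM in M8, M32 and M83 and 105 CPM in control (CPM are counts relative to the library total, adjusted by TMM factors), most of it from Krt18 and Krt20. The summed fibroblast list, which contains Vim and Col1a2, stood at 7420, 8500 and 7820 CPM in M8, M32 and M83 and at 6750 CPM in control, most of it from Vim. Of its 7 tested genes, 5 lay above control in all 3 lines and 0 below, where 23.3% of all tested genes lay above and 21.3% below. Among the 5, Dcn passed the filter through the lines alone. It had 13, 48 and 29 counts in M8, M32 and M83 and 2 in control. The median log2 fold change of the list was 1.33, against 0.02 over all tested genes. Vim and Col1a2, its genes with the most counts, lay on both sides of control. Their log2 ratios in M8, M32 and M83 were -0.053, 0.081 and 0.164 for Vim and 0.114, 0.162 and -0.165 for Col1a2. Col1a1, a fibrillar collagen gene, had 888, 1230 and 1130 CPM in M8, M32 and M83 and 430 CPM in control. Col3a1, another, had 272, 479 and 70.8 CPM in the lines and 68.5 CPM in control, and Pdgfrb, a growth factor receptor gene of mesenchymal cells, had 43.9, 86.3 and 19.8 CPM in the lines and 16.6 CPM in control. The part of these differences in the SOX values was not tested. The defining endothelial gene Cdh5 had 2 counts in M8 and 0 in the other libraries, and Ptprc, the pan-leukocyte gene, had at most 4. Other genes of these lists were counted, with 10 of 25 endothelial and 1 of 8 leukocyte genes above the filter. Vcam1, from the endothelial list, had 3082, 3127 and 3474 counts in M8, M32 and M83 and 2520 in control. Cd68, from the leukocyte list, had 18, 21 and 36 in the lines and 45 in control.

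Promoter windows from RefSeq (GRCm38.p6, 250 bases before to 50 after a gene's start) were found for 6 of the 10 members, and not for Sox7, Sox9, Sox17 and Sox18. The windows of Sox2, Sox4, Sox11 and Sox12 are shown because these genes, each with a single exon in its longest annotated transcript, cover the highest members and members with no count at all. Letters in capitals are matches to the CCAAT box, written CCAAT or, on the other strand, ATTGG. Sox2 lies at chr3:34649745-34650044 on the plus strand. Sox4 (chr13:28953650-28953949), Sox11 (chr12:27342669-27342968) and Sox12 (chr2:152397997-152398296) lie on the minus strand and are written 5′ to 3′ on it.
Sox2: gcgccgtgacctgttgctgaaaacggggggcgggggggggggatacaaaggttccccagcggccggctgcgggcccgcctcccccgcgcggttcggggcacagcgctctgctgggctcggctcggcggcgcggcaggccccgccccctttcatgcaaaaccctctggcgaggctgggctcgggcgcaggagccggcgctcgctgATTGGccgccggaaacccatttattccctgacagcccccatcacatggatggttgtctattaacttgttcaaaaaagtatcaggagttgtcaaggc
Sox4: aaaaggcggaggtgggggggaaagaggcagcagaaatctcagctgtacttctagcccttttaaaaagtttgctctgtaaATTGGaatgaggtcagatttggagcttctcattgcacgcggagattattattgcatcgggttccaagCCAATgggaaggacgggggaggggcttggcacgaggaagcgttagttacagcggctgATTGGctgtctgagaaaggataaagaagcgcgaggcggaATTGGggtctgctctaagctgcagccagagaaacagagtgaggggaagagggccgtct
Sox11: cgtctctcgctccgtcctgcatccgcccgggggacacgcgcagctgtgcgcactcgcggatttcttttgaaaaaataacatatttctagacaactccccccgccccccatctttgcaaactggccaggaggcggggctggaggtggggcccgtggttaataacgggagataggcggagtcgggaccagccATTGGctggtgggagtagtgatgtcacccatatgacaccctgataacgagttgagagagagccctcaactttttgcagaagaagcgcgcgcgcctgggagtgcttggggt
Sox12: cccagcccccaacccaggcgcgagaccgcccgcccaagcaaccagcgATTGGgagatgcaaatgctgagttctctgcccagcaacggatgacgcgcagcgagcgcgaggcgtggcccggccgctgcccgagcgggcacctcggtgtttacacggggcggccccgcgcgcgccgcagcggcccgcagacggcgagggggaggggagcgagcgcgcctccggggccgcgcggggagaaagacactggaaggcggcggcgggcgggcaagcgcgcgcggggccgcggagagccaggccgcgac
A match was present in all 4 of these windows, but not in the Sox5 window and in only 3 of the 6 Sox6 windows, which makes 7 of the 11 windows of the members. A match was found in 37.4% of all 32851 windows. Its first base lay 46 bases before the start in Sox2, 60 in Sox11 and 203 in Sox12, while Sox4 held matches at 171, 104, 47 and 8 bases before the start. These distances are to the RefSeq start. The Sox2 and Sox11 windows lie wholly upstream of the gene models used for positions and levels. Those begin at 34650405 for Sox2 and, on the minus strand, at 27342574 for Sox11. The box thus stood in the windows of the expressed pair Sox2 and Sox4 and of the pair without counts. The GC box (GGGCGG or CCGCCC), present in 35.7% of all windows, was found in Sox2, Sox11 and Sox12 and not in Sox4. The letters ACAAAG or CTTTGT, a core bound by SOX and TCF proteins that stands in 18.7% of all windows, were found in Sox2 and not in Sox4, Sox11 or Sox12. The ratio of observed to expected CpG was 0.82 in Sox2 and in Sox11, 0.68 in Sox4 and 1.07 in Sox12, against a median of 0.38 over all windows. These matches are descriptions of letters, and the motifs were picked after the windows had been read.

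Of the 10 members, 4 passed the low-count filter (Sox2, Sox4, Sox6 and Sox9). Another 4 (Sox7, Sox11, Sox12 and Sox17) were not counted in any library. A count of 0 leaves room for levels up to 0.105, 0.111 and 0.104 CPM in M8, M32 and M83 and up to 0.118 CPM in control, for counting error only. Sox5 and Sox18 were counted at 8 and 2 reads over the 4 libraries together. Sox6, just inside the filter, had 81 counts over the 4 libraries and passed it through M8 and M32. Of the 10 other SOX genes in the table, 7 had no count, and Sox13 was the only one above the filter.

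Levels of different genes are given per length, as TPM (counts per kilobase of annotated exon, scaled to the same sum in each library). Sox2 and Sox4 made up most of the SOX signal on this scale. Together they held 91.3% of the summed TPM of the 20 SOX genes in M8, 93.6% in M32, 80.0% in M83 and 93.2% in control. Sox9 held 6.21% in M8, 1.8% in M32, 15.2% in M83 and 4.53% in control. The order was Sox2, Sox4, Sox9, Sox6 in M8, M83 and control, and Sox4, Sox2, Sox9, Sox6 in M32. In M8 and in control Sox2 and Sox4 lay close together, and which of them is higher depends on how reads over a gene on the opposite strand were counted. Of the 4795 exonic bases of Sox4, 2616 also belong to the antisense gene Gm26735, which had 0 counts in every library. Over the other 2179 bases alone the Sox4 level would be 181 TPM in M8, 161 TPM in M32, 73.6 TPM in M83 and 136 TPM in control, which puts it above Sox2 in M8 and control as well. No source used here gives the strand setting, so this could not be settled.

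**Figure D1:**
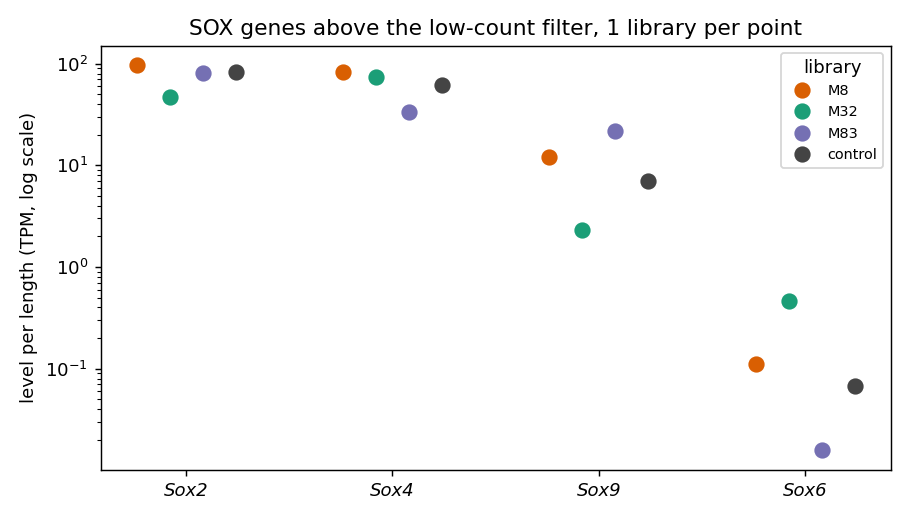
Level per length (TPM, logarithmic axis) of the 4 SOX genes above the low-count filter, with 1 point for each library (M8, M32, M83 and control). Sox2 and Sox4 lie between 33.5 and 96.6 TPM in every library, Sox9 between 2.32 and 21.8 TPM, and Sox6 below 1 TPM.

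Sox2 (ENSMUSG00000074637, GRCm38 chromosome 3, positions 34650405 to 34652461, plus strand) had the highest level per length in M83, also against the shorter Sox4 length, and the second highest in M32, while its order relative to Sox4 in M8 and control could not be settled. It had 1709 counts in M8, 812 in M32 and 1430 in M83, against 1349 in control. Per length this was 96.6, 47.3 and 80.8 TPM in M8, M32 and M83 and 82.5 TPM in control, at percentile 86.0, 74.5, 84.3 and 84.5 of the 13576 tested genes in the same libraries. M32 was the low library, and the 3 lines spread on both sides of the control. The ratio to control was 1.14 in M8 (95% exact binomial interval 1.06 to 1.22), 0.566 in M32 (0.518 to 0.618) and 0.935 in M83 (0.868 to 1.01). Sox2 lies inside an intron of the long noncoding gene Sox2ot, on the same strand and with no shared exon base. Sox2ot had 4, 4 and 7 counts in M8, M32 and M83 and 8 in control, few beside those of Sox2. The next protein-coding genes on either side, Dnajc19 and Atp11b, lie 569.1 and 1101.6 kb away. Dnajc19 had 772, 767 and 846 counts in M8, M32 and M83 and 798 in control, and Atp11b had 2362, 2650 and 2450 in the lines and 2152 in control. Neither neighbour was low in M32.

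Sox4 (ENSMUSG00000076431, chromosome 13, positions 28948919 to 28953713, minus strand) was the member with the most counts over the 4 libraries together. It had 3394 counts in M8, 2935 in M32 and 1380 in M83, against 2362 in control. M83 was the low library, and M8 and M32 lay above control. The ratio to control was 1.29 in M8 (1.22 to 1.36), 1.17 in M32 (1.11 to 1.23) and 0.515 in M83 (0.482 to 0.551). In M83 the log2 ratio of -0.95 fell just short of the 2-fold limit, and the median there of the log2 ratios of the 528 tested chromosome 13 genes was -0.20, against 0.01 over all tested genes. The part of that chromosome-wide shift in the Sox4 value was not tested. The protein-coding neighbour Cdkal1, 238.0 kb away, had 397, 478 and 354 counts in M8, M32 and M83 and 481 in control. Between lines, the Sox4 level was 2.5-fold higher in M8 than in M83 (2.35 to 2.66) and 2.27-fold higher in M32 than in M83 (2.13 to 2.42). The low library thus differed between the leading members, M32 for Sox2 and M83 for Sox4.

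The other SoxC genes were not detected. Sox11 (chromosome 12, positions 27334264 to 27342574) had 0 counts in every library, and so had Sox12 (chromosome 2, positions 152393611 to 152398063). Neither shared a 50-base word with another annotated gene, and neither overlaps one. Sox12 stands in a run of rows without counts. Of the 21 rows of the table that lie wholly between Trib3 and H13, an interval of 325.4 kb on chromosome 2, 20 had 0 counts in all 4 libraries, and the other, Defb28, had 4 in M8. They include Nrsn2, which encodes a neuronal membrane protein, Zcchc3, which encodes a zinc finger protein of nucleic acid sensing, and Rem1, which encodes a small GTPase, besides a cluster of beta-defensin genes. Trib3 and H13 are the nearest protein-coding genes on either side with high counts. The contrast with the interval therefore follows from how it was drawn. Of all 41457 rows of the table, 20208 had no count. Trib3 had 2090, 2319 and 950 counts in M8, M32 and M83 and 1059 in control, and H13 had 2448, 3468 and 4341 in the lines and 2718 in control. The interval was looked at after the Sox12 value was seen.

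**Figure D2:**
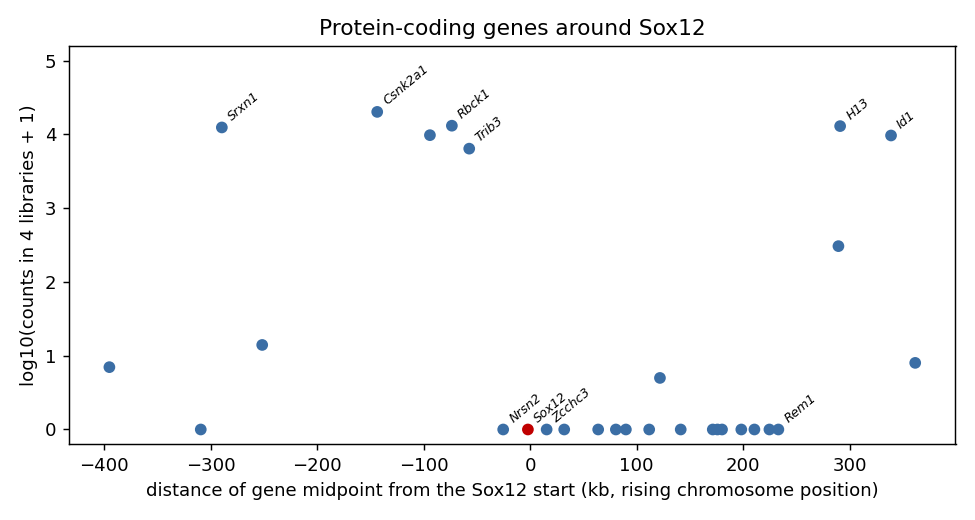
Counts summed over the 4 libraries, as log10(counts + 1), of protein-coding genes within 400 kb of the Sox12 start, against the distance of their midpoint in kb. Sox12 (red) and all genes between Trib3 and H13 except Defb28 (4 counts) lie at 0, while Trib3 (6418 counts) and H13 (12975 counts) lie near the top.

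Sox9 (ENSMUSG00000000567, chromosome 11, positions 112782224 to 112787760, plus strand) was the member for which the lines lay furthest apart among those with more than 1000 counts in all. It had 433 counts in M8, 80 in M32 and 774 in M83, against 231 in control. M83 was highest, M32 lowest, and the control lay between M32 and M8. Per length the levels were 12.2, 2.32 and 21.8 TPM in M8, M32 and M83 and 7.02 TPM in control. The ratio to control was 1.68 in M8 (1.43 to 1.98), 0.326 in M32 (0.249 to 0.422) and 2.96 in M83 (2.55 to 3.44), so the lines lay on both sides of it. Between lines Sox9 was 9.07-fold higher in M83 than in M32 (7.2 to 11.6), 5.16-fold higher in M8 than in M32 (4.05 to 6.63) and 1.76-fold higher in M83 than in M8 (1.56 to 1.98). Its log2 range over the 4 libraries was 3.15, which restates the differences it was chosen for. Sox9 shared no 50-base word with another gene and overlaps none.

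Sox9 stands in a long stretch without protein-coding genes. Kcnj2, which encodes an inward-rectifier potassium channel, ends 1705.4 kb before it, and Slc39a11, a zinc transporter gene, begins 457.1 kb after it. Kcnj2 had 163, 500 and 35 counts in M8, M32 and M83 and 61 in control, so it was highest in M32, where Sox9 was lowest, and lowest in M83, where Sox9 was highest. Slc39a11 had 1182, 807 and 1240 counts in M8, M32 and M83 and 790 in control. The 1045 tested chromosome 11 genes had medians of 0.01 (M8), -0.03 (M32) and 0.12 (M83) on the log2 ratio scale. The Sox9 log2 ratios were 0.74, -1.59 and 1.56. The part of the chromosome medians in the Sox9 values was not tested.

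The tested genes with a pattern nearest to that of Sox9 were found by the Euclidean distance between their 3 log2 ratios to control. The nearest 5 with a gene name were Gap43, Pthlh, Btc, Clip4 and Anks1b, at distances of 0.45 to 0.65. Gap43 encodes a growth cone protein of neurons, Pthlh the parathyroid hormone-like hormone, and Btc betacellulin, a ligand of the EGF receptor. Pthlh had 386, 82 and 755 counts in M8, M32 and M83 and 186 in control. Btc had 629, 122 and 1004 counts in the lines and 416 in control, and Gap43 had 36, 8 and 60 in the lines and 20 in control. Over all tested genes, 6 lay within a distance of 0.5 of Sox9, against 412 for Sox2 and 163 for Sox4. Sox9 was chosen for its differences between lines, so its low number of near genes restates that choice. The nearest gene to Sox2 was Klhl21 (distance 0.11) and the nearest to Sox4 was Gpt2, an alanine aminotransferase gene (0.13). For Sox6 it was Islr at 0.63, with at most 49 counts. The likeness rests on 3 ratios that share 1 control library.

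**Figure D3:**
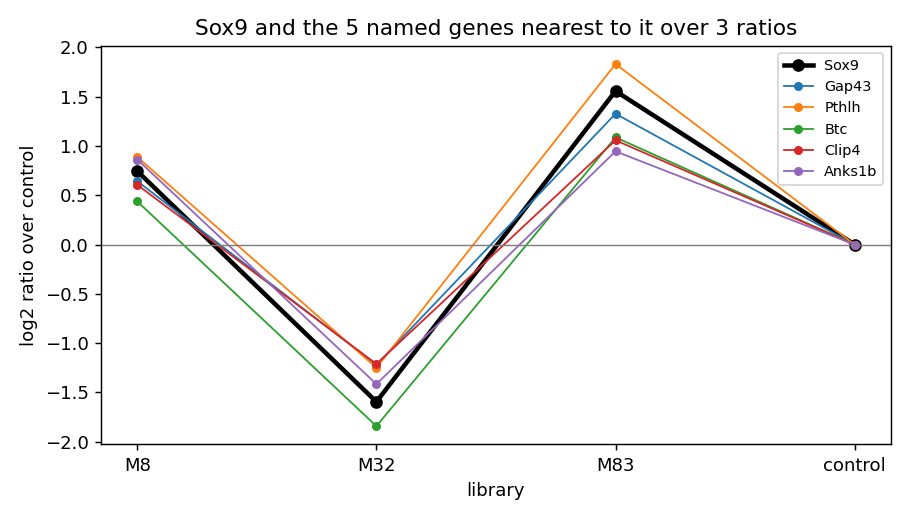
Log2 ratio to control of Sox9 (black) and of the 5 named genes nearest to it, in M8, M32, M83 and control, where the control is 0 by construction. All 6 genes are highest in M83 and lowest in M32, with Sox9 at 1.56 and -1.59. The 5 were chosen by these ratios, so the shared order restates that choice.

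Of the SoxD genes, Sox6 (ENSMUSG00000051910, chromosome 7, positions 115470872 to 116038796, minus strand) was weakly counted in M32 and close to the floor elsewhere. It had 14 counts in M8, 57 in M32 and 2 in M83, against 8 in control. M32 was therefore the highest library for Sox6 and the lowest for Sox9, which Sox6 assists in cartilage. The ratio of M32 to control was 6.7 (3.18 to 16.3) and that of M8 to control 1.57 (0.614 to 4.31). With 2 counts, the M83 ratio was 0.221, with an interval of 0.0228 to 1.11 that includes 1. Even in M32 the level was 0.46 TPM, at percentile 8.37 of the tested genes. Sox5 had 4 counts in M8, 0 in M32 and 4 in M83, against 0 in control, and 8.98% of its 50-base words occur in other genes.

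Sox13, a SoxD gene outside the chosen members, had 176, 182 and 236 counts in M8, M32 and M83 and 118 in control. It was above control in all 3 lines. The lines averaged 7.02 CPM ± 1.02 (SD, n = 3), and the control had 4.62 CPM. Its log2 range over the 4 libraries, 0.81, was the smallest of the 5 SOX genes above the filter. The edgeR quasi-likelihood log2 fold change was 0.60 (SE 0.388, adjusted p = 0.9998). All 3 lines lay above control in 23.3% of the tested genes and below it in 21.3%, so Sox13 shares its side with many genes. On its chromosome, 1, the tested genes had medians of 0.19 in M8, 0.13 in M32 and -0.068 in M83 on the log2 ratio scale. The part of these medians in the Sox13 values was not tested.

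The SoxF genes gave almost no reads. Sox7 and Sox17 had 0 counts in every library, and Sox18 had 2 counts in M32 and 0 in M8, M83 and control. The Sox17 exons overlap those of Gm37587 on the opposite strand by 804 bases, and that gene also had 0 counts. No ratio is given for these genes or for Sox5.

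The first comparison asked whether the ENU lines differed from control alike. None of Sox2, Sox4 and Sox6 passed the edgeR quasi-likelihood test across 13576 genes (adjusted p under 0.05), in which 1 gene in all was called, or 0.00737%. Among all genes tested, 448 had an unadjusted p under 0.05, and none of these 3 was among them. The mean of the 3 lines was 46.5 CPM ± 15.3 for Sox2 (SD, n = 3) against 52.9 CPM in control, a log2 fold change of -0.19 (SE 0.381, edgeR adjusted p = 0.9998). For Sox4 it was 91.7 CPM ± 38.5 (SD, n = 3) against 92.5 CPM in control, a log2 fold change of -0.01 (SE 0.483, edgeR adjusted p = 0.9998). Sox6 averaged 0.887 CPM ± 1.07 in the 3 lines (SD, n = 3), against 0.313 CPM in control, with a log2 fold change of 1.48 (SE 1.71, edgeR adjusted p = 0.9998). Sox9, without a test, averaged 15.0 CPM ± 11.9 in the lines (SD, n = 3) against 9.05 CPM in control. In none of the 4 did all lines lie on the same side of the control. Over all tested genes, 23.3% had all lines above control and 21.3% all below, so the 4 share this with many genes. Each direction rested on a single line. Without M32 the log2 fold change was 0.024 for Sox2 and -0.19 for Sox6, and without M83 it was 0.28 for Sox4 and -0.018 for Sox9. DESeq2 called 37 genes when run on the 21249 genes with a count and 44 on the same 13576 genes, and none of the 3 in either. The fit takes the spread of the single control from that of the lines, and the p-values measure the spread between 3 different mutants.

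Each line was then set against control without a test, since there is 1 library on each side. A gene counted when it differed at least 2-fold, with at least 50 counts in the higher library. In M8 0 members counted, where 5.78% of all genes with enough counts did. In M32 Sox6 and Sox9 counted, against 6.01% of all such genes, and in M83 only Sox9, against 6.46%. Nothing is read from the place of Sox9 here, since it was chosen for its differences between lines. At a 4-fold limit only Sox6 in M32 was left, with a log2 ratio of 2.49.

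**Figure D4:**
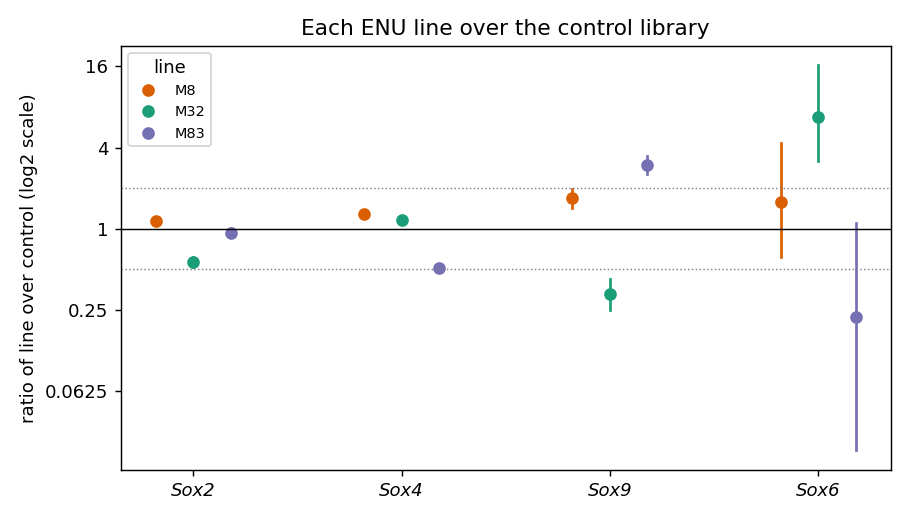
Ratio of each ENU line (M8, M32, M83) to the control library for the 4 members above the low-count filter, on a log2 axis. Points are ratios of TMM-scaled counts, bars are 95% exact binomial intervals that cover counting error only, and dotted lines mark 2-fold. Sox9 is past the dotted lines in M32 (0.326) and in M83 (2.96), in opposite directions, and Sox6 in M32 (6.7). The choice of Sox9 rested on its differences between lines.

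Between lines more members were past 2-fold. For M8 against M32 they were Sox2, Sox6 and Sox9, with 5.8% of all genes past it. Sox2 was at the limit, with a ratio of 2.0 (1.84 to 2.18). With DESeq2 size factors or library size alone its log2 ratio was 0.99 and it no longer counted, which left 2 members. For M8 against M83 it was Sox4 alone, against 7.99% of all genes. For M32 against M83 Sox4, Sox6 and Sox9 counted, against 6.32%. Sox9 was chosen for such differences, so nothing is read from its share in these counts. Sox6 was 30.4-fold higher in M32 than in M83 (8.04 to 257), which rests on 57 and 2 counts.

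Genes that act with or after the SOX factors were taken from fixed lists, and none of them passed the edgeR test. In the cartilage matrix list 8 of 21 genes were tested, with 4 above control in all lines and 0 below, against 23.3% and 21.3% of all tested genes. Of the 4, Col9a2 and Comp had 0 counts in control and passed the filter through the lines alone. Its median log2 fold change was 0.74, or 0.72 with the 2 genes at 0 in control set to their bound, against 0.02 over all tested genes. Genes near the filter enter a list through their highest library, so these medians lean towards the lines. Col2a1 and Acan, which Sox9 is known to drive in cartilage, were nearly silent in every library, while Col11a2 and Col9a3 were counted in all. Col2a1, the cartilage collagen gene, had 2, 3 and 3 counts in M8, M32 and M83 and 6 in control, and Acan, the aggrecan gene, had 0 in all. Col11a2, a minor cartilage collagen gene, had 236, 139 and 75 counts in M8, M32 and M83 and 74 in control, and it was highest in M8, not in M83. Col9a3, another minor cartilage collagen gene, had 36, 18 and 40 counts in the lines and 11 in control, and it was highest in M83 and lowest of the lines in M32, as Sox9 was. Runx2, a bone and cartilage regulator, had 1242, 1261 and 1546 counts in the lines and 1247 in control.

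Among 15 crypt genes, which share their place in the gut with Sox9, 8 were tested. Of these, 0 lay wholly above and 0 wholly below control, against 23.3% and 21.3% of all tested genes. Lgr5, the crypt stem cell receptor gene, had 1 count in M8 and 0 elsewhere. Cd44 had 14222, 10050 and 18765 counts in M8, M32 and M83 and 10647 in control, in the same order as Sox9 among the lines. Krt20, from the epithelial marker list, had 3306, 1008 and 3667 counts in the lines and 1914 in control, again highest in M83 and lowest in M32. Krt19 of that list, with at most 30 counts, had the same order, while Krt8, Krt18 and Lgals4 did not. Krt18 had 1794, 992 and 911 counts in M8, M32 and M83 and 710 in control. Ephb3 ran the other way, with 300, 533 and 158 counts in the lines and 191 in control.

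Neuronal genes, which include genes linked to SoxC and Sox2, gave 8 of 16 tested. Of these, 1 lay above control in all lines and 1 below, against 23.3% and 21.3% of all tested genes. Nefm, a neurofilament gene, had 13586, 3795 and 10840 counts in M8, M32 and M83 and 6291 in control, and Nefl had 4488, 1556 and 5307 in the lines and 1928 in control. Both were lowest in M32, as Sox2 and Sox9 were. Dbn1, which encodes an actin-binding protein of dendritic spines, and Stmn1, which encodes a microtubule-destabilising protein, were instead highest in M32. Dbn1 had 167, 433 and 251 counts in M8, M32 and M83 and 73 in control, and Stmn1 had 4249, 4853 and 3037 in the lines and 3813 in control. Among the partners of Sox2 in pluripotent cells and neural progenitors 4 of 16 were tested. Pou5f1, its partner in pluripotent cells, had 2 counts in M32, 2 in control and 0 in M8 and M83, and Nanog had at most 6. Nes, the nestin gene of neural progenitors, had 5205, 4256 and 2903 counts in the lines and 4661 in control, and Klf4 had 6674, 5665 and 11733 in the lines and 4016 in control. Sox2 was thus counted in all libraries beside abundant Klf4 and Nes and almost no Pou5f1.

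The endothelial list, the field of SoxF, had 10 of 25 genes tested, with 5 above control in all lines and 1 below (median log2 fold change 0.72), against 23.3% and 21.3% of all tested genes. Of the 5, Egfl7, Pecam1 and Vwf passed the filter through the lines alone, with 0, 5 and 2 counts in control. The count above control and the median of this list therefore lean towards the lines. Notch4 had 82, 138 and 414 counts in M8, M32 and M83 and 94 in control, and Notch1, the gene below control, 839, 1132 and 447 in the lines and 1299 in control. The endoderm list had 4 of 12 genes tested, with Foxa1 at 286, 600 and 775 counts in M8, M32 and M83 and 563 in control. Neural crest and glial genes had 5 of 10 tested, with 2 below control in all lines and 0 above, against 21.3% and 23.3% of all tested genes. Of 21 other genes with an HMG box 16 were tested, 6 of them below control in all lines and 0 above, against 21.3% and 23.3% of all tested genes. Lef1, a partner of beta-catenin, had 508, 476 and 385 counts in the lines and 663 in control, and Hmgb2, an architectural chromatin protein gene, 9735, 10215 and 6237 in the lines and 11870 in control. That list had a median log2 fold change of -0.14.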

How the data were processed

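The values are raw read counts per gene, deposited by the authors without normalisation, in 1 column for each of the 4 samples. The genome build named in the submitters' processing notes is GRCm38. The aligner, counter, annotation and strand setting are not given here by any label or header. Columns were assigned to samples by the sample descriptions in the labels. Symbols came from the table, and positions, exon lengths and overlaps from GENCODE vM21 (same build), which holds 41434 of the 41457 row identifiers. Of the rows, 20208 had no count.

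The 3 lines carry 1 genotype label and were set against the control with edgeR 4.0.16 (R 4.3.3, quasi-likelihood F-test, TMM factors, filterByExpr, Benjamini-Hochberg adjustment over 13576 genes). SE is the size of the log2 fold change divided by the square root of F. DESeq2 1.42.0 was an alternative, run on all 21249 genes with a count and on the 13576. The test was run on simulated data in which the control was given the same spread as the lines. Such data cannot check whether the real control varies as the lines do. Single libraries were compared by log2 ratios (prior count 2) and by exact 95% Clopper-Pearson intervals, which cover counting error only. The table holds no separate repeats, so a single line cannot be checked against a replicate.

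The members, gene lists and rules were chosen with earlier results of these data known. Named were all SOX genes, their neighbours, the 3 highest and the 3 most variable tested genes of each list, and the nearest genes in pattern, though not all of these are printed. Epcam, Cdx2, Cdh5, Ptprc, Col2a1, Acan, Lgr5, Col9a3, Pou5f1, Nanog and the genes around Sox12 were chosen after their values were seen.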

Additional observations from a re-analysis of the deposited data

How the results depend on the processing

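The number of genes called for the ENU lines against control was 2 without the filter on low counts and, with DESeq2, 37 on the 21249 genes with a count and 44 on the 13576 genes that passed the filter, against 1 in the main analysis. The second DESeq2 analysis was added after seeing the data. It was 1 in each analysis that left out an ENU line. Sox2, Sox4, Sox6 and Sox13 were called in none of these. The log2 fold change ranged from -0.41 to 0.024 for Sox2, from -0.25 to 0.28 for Sox4, from -0.19 to 2.02 for Sox6 and from -0.018 to 1.19 for Sox9 when each line was left out in turn. The sign turned for Sox2 and Sox6 without M32, and for Sox4 and Sox9 without M83, and the cause was not tested. The 72 log2 ratios recomputed with DESeq2 size factors, library size alone or a prior count of 0.5 stayed within their counting intervals, but with DESeq2 size factors or library size alone Sox2 left the members past 2-fold for M8 against M32, which gave 2 in place of 3. With a 4-fold limit, 1 member was past it in M32 and 0 in M83, because the limit is stricter. Leaving the bases shared with Gm26735 out of the Sox4 length, an alternative chosen after seeing the data, kept the order of levels in 2 of 4 libraries. No paired analysis was possible because the labels give no replicate numbers. The control could not be left out, since it is the only one. Depth limits Sox5, Sox6 and Sox18.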
